A study of Mus musculus with 6 samples.

Results

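Interleukin-1 family ligands and receptors were followed in cultured mouse progenitors and in the dendritic cells grown from them. The genes were chosen by symbol: Il1a, Il1b, Il1rn, Il18, Il1r1, Il1r2, Il1rap, Il1rl1 and Il18rap. Of these 9 genes, 8 had a probe set annotated to that gene alone, with 16 such probe sets in all, among 18193 genes so represented. Il1rl1 had no single-symbol probe set in the annotation used and was not analysed here. Expression was measured on 6 Affymetrix arrays with cells of C57BL/6 mice, 2 arrays in each of 3 groups. GM-MPP are multipotent progenitors grown from bone marrow in stem cell cytokines together with GM-CSF, a growth factor of myeloid cells. GM-DC are dendritic cells derived from GM-MPP in GM-CSF, and GM-TNFa-DC were derived in GM-CSF together with TNFa, an inflammatory cytokine. All groups therefore received GM-CSF, and no group without it was analysed here. The labels give no genotype beyond the strain, and no ages or culture times. They number the arrays 1 and 2 within a group, and nothing in them ties these to different cultures or animals. The p-values therefore rest on the spread between these arrays alone, some or all of which may be technical.

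Interleukin-1 is an early alarm signal of inflammation. Its agonists, IL-1 alpha (Il1a) and IL-1 beta (Il1b), bind the type 1 receptor (Il1r1), which then recruits the accessory protein (Il1rap) and signals to NF-kB and AP-1. Several brakes act on this step: the receptor antagonist (Il1rn) occupies the type 1 receptor without signalling, and the type 2 receptor (Il1r2) is a decoy that binds the ligand but lacks a signalling domain. IL-18 (Il18) is a related cytokine whose receptor includes the accessory chain Il18rap. IL-1 beta and IL-18 are made as precursors that are cut by caspase-1 in the inflammasome, so the RNA level says nothing of how much active cytokine was released. Dendritic cells and macrophages are known sources of IL-1 when they meet inflammatory signals.

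Except for Il1rap on chromosome 16, the receptor genes of this set lie in a cluster on chromosome 1. There Il1r2, Il1r1, Il1rl2, Il1rl1, Il18r1 and Il18rap follow each other as 6 protein-coding genes. Il1a and Il1b are neighbours on chromosome 2. Sequences before the start sites of 3 genes are shown because Il1b and Il1rn had the same split between arrays and Il18rap fell in both dendritic cell groups. They are RefSeq sequences of build GRCm38.p6, written 5′ to 3′ on the gene's own strand. The Il1b stretch is chr2:129371165-129371389 on the minus strand, and it overlaps the noncoding gene Il1bos. The Il1rn stretch is chr2:24336610-24336859 and the Il18rap stretch chr1:40515112-40515361, both on the plus strand. Capitals mark the TATA box letters TATAAA in Il1b, an AP-1 match in Il1rn and matches to GAGGAA, a core of PU.1 sites, in Il18rap.
Il1b: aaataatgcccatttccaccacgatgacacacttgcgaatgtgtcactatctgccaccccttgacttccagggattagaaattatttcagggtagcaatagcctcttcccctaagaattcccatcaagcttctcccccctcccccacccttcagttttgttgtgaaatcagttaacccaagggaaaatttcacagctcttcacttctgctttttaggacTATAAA
Il1rn: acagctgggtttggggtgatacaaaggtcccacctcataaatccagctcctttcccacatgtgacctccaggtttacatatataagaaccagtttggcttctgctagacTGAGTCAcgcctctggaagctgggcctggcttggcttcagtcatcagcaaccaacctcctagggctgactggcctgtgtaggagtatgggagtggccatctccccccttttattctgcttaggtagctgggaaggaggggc
Il18rap: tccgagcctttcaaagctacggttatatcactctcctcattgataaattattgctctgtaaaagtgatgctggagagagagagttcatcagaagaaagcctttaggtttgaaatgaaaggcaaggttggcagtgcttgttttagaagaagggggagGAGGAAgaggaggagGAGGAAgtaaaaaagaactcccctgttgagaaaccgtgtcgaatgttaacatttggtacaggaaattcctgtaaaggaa

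The 250 bases before each annotated start were searched on both strands for 5 motifs. The Il1b TATA box lay 31 to 26 bases before the start, and TATAAA was present in 12.4% of 32851 RefSeq windows of the same length. The AP-1 match of Il1rn, TGAGTCA, lay 141 to 135 bases before the most upstream of its annotated starts, and TGANTCA was present in 6.75% of windows. The windows of the other annotated Il1rn starts, inside the gene, held none of the 5 motifs. Il18rap held GAGGAA at 94 to 89 and at 79 to 74 bases before its start, and 23.3% of windows held it. The window of Il1a, most of which lies inside the gene's annotated span, held a TATA box match, a PU.1 match and an AP-1 match, the last of them spelled TGACTCA. The C/EBP letters TTGCNNAA, present in 9.56% of windows, matched in 1 of the windows of Il1r1. The NF-kB consensus, present in 7.25% of windows, matched in the other Il1r1 window and in no other window of the 8 measured genes. The Il18 window, which overlaps the gene Bco2, held the TATA box letters on the opposite strand, 175 to 170 bases before the start. The windows of Il1r2 and Il1rap held none of the 5 motifs. These matches describe letters and were not tested as binding sites.

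Values are log2 expression levels, so 1 unit is a doubling, and array medians lay between 4.67 and 4.77. Differences were tested with limma, with p-values adjusted over all 18193 genes, and a gene was called at an adjusted p under 0.05. The value after ± is the standard error of a log2 change. The labelled cell types were checked against marker lists. Of 19 dendritic cell markers, 12 rose in GM-DC and 14 in GM-TNFa-DC against GM-MPP, among them Ccl17 (7.20 ± 0.42, adjusted p = 0.00321 in GM-DC). Flt3, which marks both progenitors and dendritic cells, fell. The progenitor arrays carried neutrophil granule transcripts: the mean level of 14 neutrophil markers was 11.53 and 12.28 in GM-MPP, 8.34 and 7.72 in GM-DC, and 7.21 and 7.58 in GM-TNFa-DC. In bulk RNA, fewer cells of a type and less RNA per cell cannot be told apart.

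Il1b, which encodes IL-1 beta, was near the array median in progenitors and higher on every dendritic cell array. Its level was 4.94 and 5.12 in GM-MPP, 6.93 and 10.08 in GM-DC, and 9.24 and 12.40 in GM-TNFa-DC. The groups did not overlap between GM-MPP and either dendritic cell group, whereas the number-2 array of GM-DC was above the number-1 array of GM-TNFa-DC. Against GM-MPP the log2 change was 3.48 ± 1.34 in GM-DC (11.1-fold, limma adjusted p = 0.216) and 5.79 ± 1.34 in GM-TNFa-DC (55.2-fold, limma adjusted p = 0.0649). Neither passed the threshold, and the 2 arrays of each dendritic cell group differed by 3.15 log2 units. In GM-TNFa-DC against GM-MPP, limma's adjusted p became 0.0494 with the dim genes left out, at the same change of 5.79. Dimness was judged by the mean over all 6 arrays, which the dendritic cell arrays raise for Il1b (8.12). This value is therefore no separate support for the rise. With 1 array left out, the change ran from 4.21 to 7.36.

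Il1a, the gene of IL-1 alpha, had the same order of groups with smaller changes. It stood at 4.53 and 4.03 in GM-MPP, 5.87 and 8.63 in GM-DC, and 6.62 and 9.97 in GM-TNFa-DC. All 4 dendritic cell arrays were above both progenitor arrays, and the dendritic cell groups overlapped each other. Against GM-MPP the change was 2.97 ± 1.31 in GM-DC (limma adjusted p = 0.268) and 4.01 ± 1.31 in GM-TNFa-DC (limma adjusted p = 0.135). The GM-MPP values lay below the array median, so these folds are compressed by background.

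Il1rn, the receptor antagonist, was expressed in progenitors too. Its level was 8.85 and 8.12 in GM-MPP, 8.83 and 12.23 in GM-DC, and 9.39 and 12.54 in GM-TNFa-DC. On number-1 arrays GM-DC equalled GM-MPP (a difference of -0.01), whereas on number-2 arrays GM-DC was 4.11 higher, a 17.3-fold difference. The mean change was 2.05 ± 1.41 in GM-DC (limma adjusted p = 0.467) and 2.48 ± 1.41 in GM-TNFa-DC against GM-MPP (limma adjusted p = 0.332). The 3 Il1rn probe sets gave similar changes in GM-DC against GM-MPP: 2.05, 2.19 and 2.32.

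Il18 did not follow the other ligands. It was 7.25 and 7.45 in GM-MPP, 10.29 and 8.12 in GM-DC, and 8.37 and 8.12 in GM-TNFa-DC. The number-1 array of GM-DC was the highest of the 6, and every dendritic cell array was above both progenitor arrays. The change against GM-MPP was 1.86 ± 0.68 in GM-DC (limma adjusted p = 0.196) and 0.90 ± 0.68 in GM-TNFa-DC (limma adjusted p = 0.457). The GM-DC change rested on the number-1 array: it was 0.78 without that array (limma adjusted p = 0.314). Without the number-2 GM-DC array it was 2.94 and passed the threshold (limma adjusted p = 0.038), where the spread of the lone GM-DC array was taken from the rest.

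**Figure D1:**
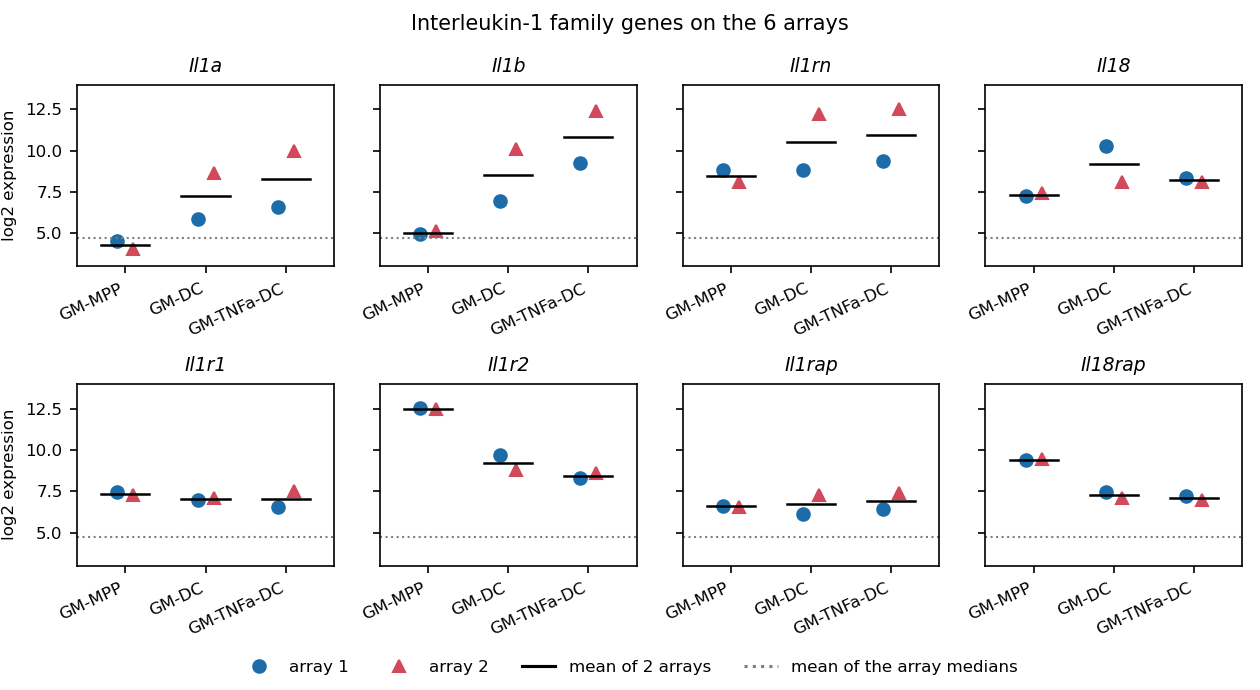
Log2 expression (vertical axis) of the 8 measured genes in the 3 groups, with circles for number-1 arrays, triangles for number-2 arrays, bars for the mean of the 2 arrays and a dotted line at the mean of the array medians. Il1a, Il1b and Il1rn separate by array number in both dendritic cell groups, whereas the progenitor values of Il1r2 (12.53 and 12.45) and Il18rap (9.38 and 9.45) lie above all 4 dendritic cell values.

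The decoy receptor Il1r2 fell in both dendritic cell groups. It was 12.53 and 12.45 in GM-MPP, 9.68 and 8.77 in GM-DC, and 8.30 and 8.58 in GM-TNFa-DC. Both progenitor arrays stood above all dendritic cell arrays, and both GM-TNFa-DC arrays stood below both GM-DC arrays. Against GM-MPP it was 9.6-fold lower in GM-DC (-3.26 ± 0.33, limma adjusted p = 0.0123) and 16.5-fold lower in GM-TNFa-DC (-4.05 ± 0.33, limma adjusted p = 0.00588). The fall was present within each array number: -2.85 and -3.68 in GM-DC, and -4.23 and -3.87 in GM-TNFa-DC. Leaving out GM-MPP 1 or GM-MPP 2 ended the call in GM-DC (limma adjusted p = 0.108 and 0.0983) and in GM-TNFa-DC (0.0655 in both cases), with the sign kept.

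Il18rap, the accessory chain of the IL-18 receptor, also fell in both groups. It was 9.38 and 9.45 in GM-MPP, 7.43 and 7.10 in GM-DC, and 7.24 and 6.98 in GM-TNFa-DC. The progenitor arrays were above all 4 dendritic cell arrays, which overlapped between their groups. The gene was 4.44-fold lower in GM-DC (-2.15 ± 0.22, limma adjusted p = 0.0125) and 4.96-fold lower in GM-TNFa-DC (-2.31 ± 0.22, limma adjusted p = 0.00906) than in GM-MPP. A second, dimmer probe set gave -2.21 and -2.37. Leaving out any 1 array of GM-MPP or GM-DC ended the call in GM-DC (limma adjusted p between 0.0614 and 0.0996), as did leaving out GM-MPP 1 (0.0772) or GM-MPP 2 (0.0785) in GM-TNFa-DC.

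Part of the granulocyte markers and of the progenitor markers fell beside these receptors. The progenitor list had 12 genes, of which 6 fell in GM-DC and 7 in GM-TNFa-DC against GM-MPP, and none rose. Myb was among them (-6.42 ± 0.52, limma adjusted p = 0.00616 in GM-DC). Without a test, 8 genes of that list lay below both GM-MPP arrays and 2 above in each comparison. Of 14 neutrophil markers, 12 in GM-DC and 13 in GM-TNFa-DC lay below both GM-MPP arrays and none above, again without a test. Their median changes were -3.47 and -4.15. By the test, 5 of the 14 fell in GM-DC and 7 in GM-TNFa-DC against GM-MPP, and none rose. They included the granule protein genes Mpo (-7.94 ± 0.55, limma adjusted p = 0.00476 in GM-DC) and Ctsg (-7.13 ± 0.55, adjusted p = 0.00541). S100a8 was also among them (-2.08 ± 0.33, limma adjusted p = 0.0328 in GM-DC). Cxcr2 was lower without a call in either group (-2.29 ± 0.50, limma adjusted p = 0.0687 in GM-DC), and Ly6g was not measured. Of 14 markers of mast cells, basophils and eosinophils, 2 fell in GM-DC, Mcpt8 (-3.08 ± 0.37) and Ms4a2 (-2.93 ± 0.35), and 4 fell in GM-TNFa-DC. These 4 were Mcpt8, Ms4a2, Cpa3 (-3.03 ± 0.51, limma adjusted p = 0.0306) and Gata2 (-1.28 ± 0.22, limma adjusted p = 0.0308). The list did not move as a whole: its median change was 0.04 in GM-DC and -0.24 in GM-TNFa-DC, and in GM-DC 3 of its genes lay above both GM-MPP arrays and 5 below. The eosinophil gene Epx, named after its values were seen, was 4.64 and 4.57 in GM-MPP, 8.66 and 5.54 in GM-DC, and 7.75 and 5.44 in GM-TNFa-DC (2.50 ± 1.17, limma adjusted p = 0.293 in GM-DC). The mean level of this list was 5.98 and 6.04 in GM-MPP, 5.85 and 4.99 in GM-DC, and 5.49 and 5.07 in GM-TNFa-DC. In each group 6 of the 14 were below the array median on both arrays, Fcer1a among them in all groups. Cpa3 (10.04 and 9.73 in GM-MPP) and Gata2 (7.42 and 7.31) were above the median on all 6 arrays. T, NK and innate lymphoid cell markers averaged between 4.09 and 4.67 in the 6 arrays. Of the 14 markers, 9 lay below the array median on both arrays of GM-MPP and 8 in each dendritic cell group. Cd3g, Cd3d, Gata3, Tbx21 and Ncr1 were among them in all groups, whereas Cd3e, between 5.62 and 6.24, lay above the median on all 6 arrays. Of these 14 lymphoid markers, Rora rose in GM-DC (2.22 ± 0.28, adjusted p = 0.0199), and Rora and Klrk1 rose in GM-TNFa-DC. The part of granulocyte or progenitor transcripts in the fall of Il1r2 and Il18rap was not tested.

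The signalling receptor chains showed no difference past the threshold. Il1r1 was 7.46 and 7.27 in GM-MPP, 6.96 and 7.11 in GM-DC, and 6.58 and 7.49 in GM-TNFa-DC. Its change was -0.33 ± 0.33 in both dendritic cell groups against GM-MPP (limma adjusted p = 0.626 in GM-DC and 0.578 in GM-TNFa-DC). Il1r1 lies between Il1r2 and Il18rap on chromosome 1. Il1rap was 6.64 and 6.57 in GM-MPP, 6.13 and 7.30 in GM-DC, and 6.43 and 7.41 in GM-TNFa-DC, so its progenitor values lay between the 2 arrays of each dendritic cell group. Its change was 0.11 ± 0.49 in GM-DC (limma adjusted p = 0.928) and 0.32 ± 0.49 in GM-TNFa-DC (limma adjusted p = 0.728). Of the 5 Il1rap probe sets and the 2 of Il1r1, 3 were dim, with mean levels between 2.34 and 3.29, and the others gave no call in any comparison.

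Read against all genes, the 8 measured genes gave 2 calls lower and 0 higher in GM-DC against GM-MPP, where 2.63% of genes were called lower and 1.87% higher. In GM-TNFa-DC against GM-MPP the counts were again 2 lower (4.26% of all genes) and 0 higher (2.77%). At an unadjusted p under 0.05 in limma, 2 members were higher in GM-DC (Il1b and Il18, against 9.06% of all genes) and 2 lower (Il1r2 and Il18rap, against 12.5%). In GM-TNFa-DC, Il1a and Il1b were higher at that level (11.5% of all genes) and Il1r2 and Il18rap lower (13.6%). Both comparisons share the GM-MPP arrays. Without a test, 3 genes in GM-DC (Il1a, Il1b and Il18) and 4 in GM-TNFa-DC (Il1rn as well) had both arrays above both GM-MPP arrays, as did 28.3% and 31.6% of all genes. In the same way 3 genes in GM-DC (Il1r1, Il1r2 and Il18rap) and 2 in GM-TNFa-DC (Il1r2 and Il18rap) lay below both GM-MPP arrays, as did 27.0% and 26.1% of all genes. Il1a and Il1b were at least 2-fold higher for both array numbers in GM-DC (3.65% of all genes) and in GM-TNFa-DC (3.80%). Il1r2 and Il18rap were at least 2-fold lower for both numbers in GM-DC (4.07%) and in GM-TNFa-DC (5.32%).

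**Figure D2:**
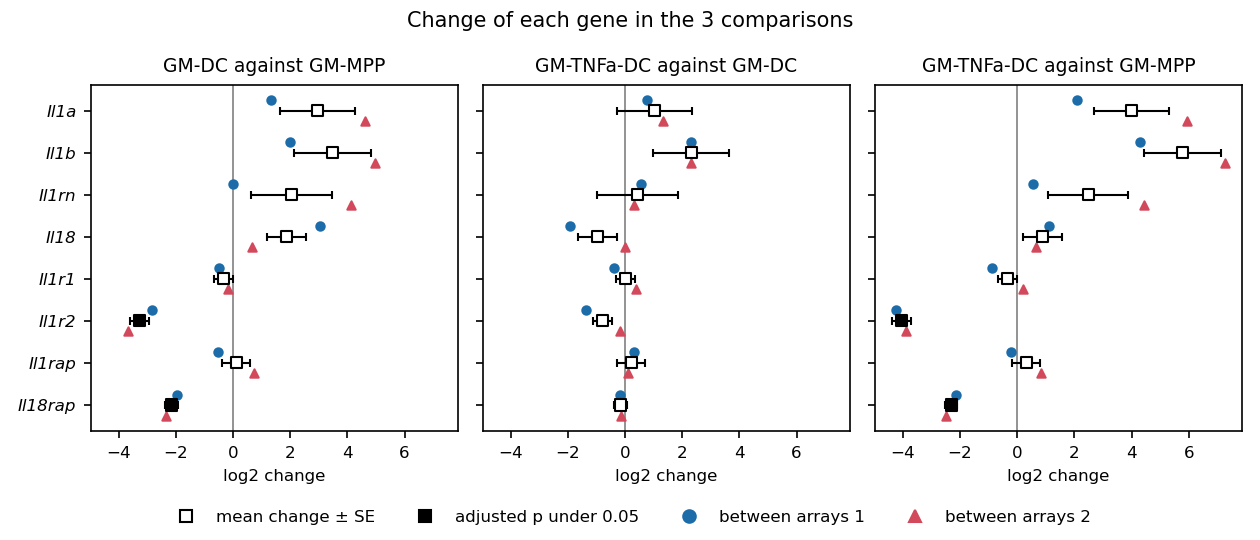
Log2 change (horizontal axis) of each gene in the 3 comparisons, with squares for the mean change and its standard error, filled where the adjusted p was under 0.05, circles for the difference between number-1 arrays and triangles for that between number-2 arrays. Il1r2 and Il18rap carry filled squares in both comparisons with GM-MPP, and Il1b has nearly the same change of 2.31 for both numbers in GM-TNFa-DC against GM-DC.

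Setting GM-TNFa-DC beside GM-DC asks what TNFa adds to GM-CSF. No gene of the 18193 passed limma's threshold (0%), so no member was called and each had an adjusted p of 1. At an unadjusted p under 0.05 there were 270 genes higher (1.48%) and 140 lower (0.770%), none of them a member. Il1b had the largest mean change of the 8, 2.31 ± 1.34, and within each array number it was 4.95-fold and 4.97-fold higher with TNFa. Across numbers it was less steady: the mean change was 0.74 without GM-DC 1, 0.73 without GM-TNFa-DC 2, and 3.89 without GM-DC 2 or without GM-TNFa-DC 1. No other gene was raised by at least this much between both pairs of same-numbered arrays, and Il1b ranked 4 of 18193 by mean change. It was 1 of 13 genes (0.0715%) at least 2-fold higher for both numbers, with Fst, Clec4e, Foxp4, Nfkbiz, Tnfaip3, Gpr84, Nfkbie, Tma16, Aldh1a2, Slamf8, Relb and Cxcl2. No member was among the 9 genes (0.0495%) at least 2-fold lower for both numbers. This ordering is a description of 4 arrays and carries no test.

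The other ligands differed less between the dendritic cell groups. Il1a was 1.04 ± 1.31 higher with TNFa (0.75 and 1.33 for the 2 numbers) and Il1rn 0.43 ± 1.41 (0.55 and 0.31). Il18 was lower on the number-1 array only, by -1.92 against -0.01, with a mean of -0.96 ± 0.68. Among receptors, Il1r2 was the 1 member whose groups did not overlap, at -0.79 ± 0.33. As background, 10.6% of all genes had both GM-TNFa-DC arrays below both GM-DC arrays, and 14.9%, with no member among them, had both above. Il18rap differed by -0.16 ± 0.22, Il1rap by 0.21 ± 0.49 and Il1r1 by -0.00 ± 0.33.

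**Figure D3:**
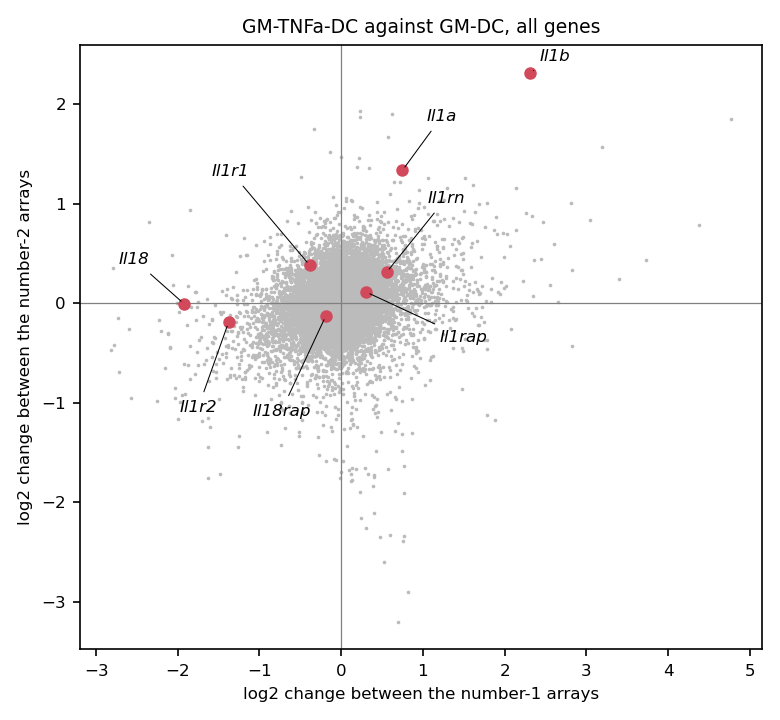
Each point is a gene, placed by its log2 change from GM-DC to GM-TNFa-DC between number-1 arrays (horizontal axis) and between number-2 arrays (vertical axis), with the 8 measured genes in red. Il1b lies at 2.31 on both axes, apart from the other genes, while Il18 and Il1r2 lie to the left with -1.92 and -1.38 between number-1 arrays.

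For Il1a, Il1b and Il1rn the gap between array numbers exceeded the difference between GM-TNFa-DC and GM-DC. In both dendritic cell groups the number-2 array was higher for Il1a (6.79-fold in GM-DC, 10.2-fold in GM-TNFa-DC), Il1b (8.87-fold and 8.9-fold) and Il1rn (10.5-fold and 8.89-fold). These 3 of 8 were at least 2-fold higher on the number-2 array in both groups, as were 3.20% of all genes, and none was 2-fold lower in both, against 2.06%. In progenitors the same gaps were -0.50 for Il1a, 0.17 for Il1b and -0.73 for Il1rn, so the split was absent or opposite there. Il1rap was also higher on number-2 arrays, by 1.17 and 0.98, while Il18 was 4.5-fold lower on the number-2 array of GM-DC. Il1r2 and Il18rap had smaller gaps, of -0.91 and -0.33 in GM-DC and 0.28 and -0.26 in GM-TNFa-DC.

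Other genes also divided by array number in the dendritic cell groups. Of 18 genes commonly induced by IL-1, 8 were at least 2-fold higher on the number-2 array in both dendritic cell groups, among them Il6, Cxcl2, Ccl2 and Ptgs2, and none was lower. Cxcl2, a chemokine for neutrophils, was 5.27 and 10.37 in GM-DC and 6.95 and 11.37 in GM-TNFa-DC. Unlike Il1a, Il1b and Il1rn, some of these genes split the same way in progenitors: Cxcl2 was 5.29 and 7.26 there, Saa3 9.58 and 12.97, and Nfkbiz 6.41 and 7.55. Of 19 dendritic cell markers, 11 were at least 2-fold lower on number-2 arrays, including the class II genes H2-Aa, H2-Ab1 and H2-Eb1, and none was higher. Of 13 monocyte and macrophage markers, C1qa, Fcgr1 and Cd14 were at least 2-fold higher in both groups and none was 2-fold lower in both. Mertk of that list went the other way, at 9.57 and 8.70 in GM-DC and 9.31 and 8.28 in GM-TNFa-DC. Cd14, a co-receptor for bacterial lipopolysaccharide, was 8.24 and 9.25 in GM-MPP, 7.48 and 12.50 in GM-DC and 8.50 and 13.18 in GM-TNFa-DC. C1qa was also higher on the number-2 array of GM-MPP, at 6.61 and 8.76. It was 3.67 and 5.45 in GM-DC and 3.84 and 4.85 in GM-TNFa-DC, with both number-1 values below the array median. The mean level of the monocyte and macrophage list was 8.10 and 9.17 in GM-DC and 7.80 and 8.84 in GM-TNFa-DC. That of the dendritic cell list was 10.33 and 8.74, and 10.74 and 8.94. Other cell lists also split by array number in both groups. Of 14 neutrophil markers, Mmp8, Mmp9 and Lcn2 were at least 2-fold higher on number-2 arrays, and Ctsg, Ltf, Ngp and S100a9 lower. Prg2, Epx and Kit of the mast cell, basophil and eosinophil list were lower. Of 12 progenitor markers, Gfi1 and Spink2 were higher, and Kit, which is on both lists, was lower. The part of these cell markers in the gap of Il1a, Il1b and Il1rn was not tested, and the labels do not say what the numbers stand for.

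**Figure D4:**
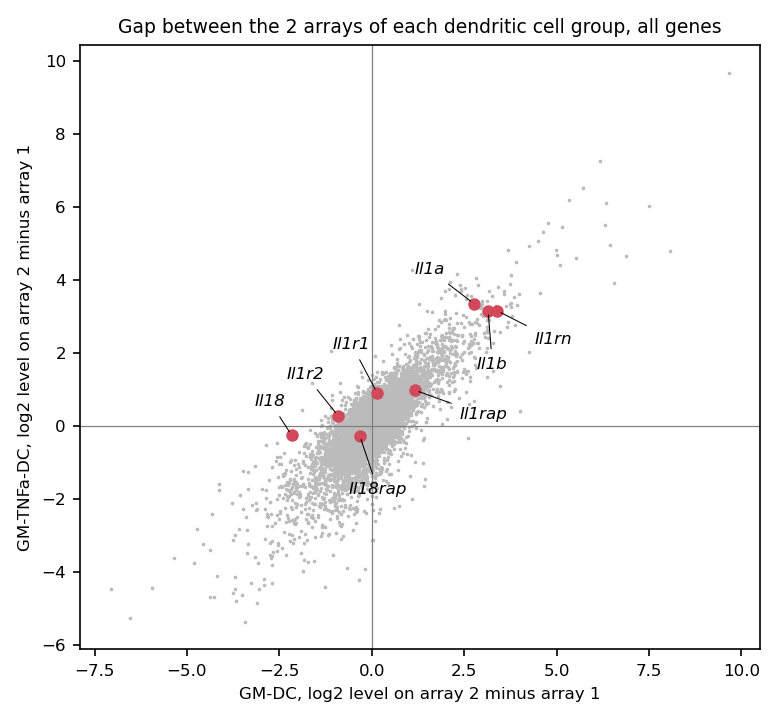
Each point is a gene, placed by its log2 level on array 2 minus array 1 in GM-DC (horizontal axis) and in GM-TNFa-DC (vertical axis), with the 8 measured genes in red. Il1a, Il1b and Il1rn lie together at the upper right, with gaps between 2.76 and 3.40, and Il18 lies at -2.17 and -0.25.

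Few other genes of the pathway passed the test. Of 6 further receptors and binding proteins none was called. Sigirr, an inhibitory receptor, was 7.03 and 7.13 in GM-MPP and 5.66 and 6.34 in GM-DC (-1.08 ± 0.28, limma adjusted p = 0.0992). Il18r1, the ligand-binding chain that pairs with Il18rap, was 6.66 and 4.74 in GM-DC and 6.94 and 4.06 in GM-TNFa-DC, against 6.78 and 6.60 in GM-MPP. It was thus close to progenitors on number-1 arrays and lower on number-2 arrays. Of the 2 further ligands measured, neither was called, and Il33 stayed between 2.37 and 3.03, below the array medians.

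Of 12 inflammasome and processing genes measured, P2rx7, the ATP-gated channel that triggers the inflammasome, rose in both groups and none fell. It was 4.42 and 4.94 in GM-MPP, 6.59 and 7.08 in GM-DC, and 6.29 and 6.99 in GM-TNFa-DC (2.15 ± 0.34, limma adjusted p = 0.032 in GM-DC, and 1.96 ± 0.34, adjusted p = 0.0335 in GM-TNFa-DC). The list's median change was 0.32 in GM-DC and 0.43 in GM-TNFa-DC, against 0.02 and 0.05 over all genes. Most of it came from number-2 arrays: the medians were 0.15 for number 1 and 0.34 for number 2 in GM-DC, and 0.03 and 0.57 in GM-TNFa-DC. Of 16 receptor signalling genes, Irak2, a kinase-like adaptor below the IL-1 receptor, rose and none fell. Its level was 6.87 and 7.07 in GM-MPP, 8.95 and 8.91 in GM-DC, and 8.94 and 9.05 in GM-TNFa-DC, with nearly no gap between array numbers (1.96 ± 0.20, limma adjusted p = 0.012 in GM-DC, and 2.02 ± 0.20, adjusted p = 0.00906 in GM-TNFa-DC). The median of that list was 0.03 and 0.16.

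Of the 18 genes commonly induced by IL-1, Icam1, an adhesion molecule, rose in GM-DC (2.93 ± 0.44, limma adjusted p = 0.0288) and in GM-TNFa-DC (4.14 ± 0.44, adjusted p = 0.0112). Tnfaip3, which encodes the NF-kB inhibitor A20, rose in GM-TNFa-DC against GM-MPP (1.64 ± 0.32, limma adjusted p = 0.0421). It was 9.12 and 9.20 in GM-DC and 10.41 and 10.36 in GM-TNFa-DC, groups that did not overlap. The list's median change was 0.30 in GM-DC and 0.55 in GM-TNFa-DC against GM-MPP, and 0.42 between the dendritic cell groups, where all genes had 0.01. In GM-DC against GM-MPP it was 0.02 for number 1 and 0.24 for number 2, where all genes had 0.02 and 0.01. In GM-TNFa-DC against GM-MPP it was 0.56 and 0.77. Not all of the list rose: Lcn2 (-2.75 ± 1.82) and Saa3 (-2.01 ± 3.04) were lower in GM-DC than in GM-MPP, neither of them called. TNFa induces many of the same genes, so the list does not separate the 2 cytokines.

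Profiles over the 6 arrays were compared by the root mean square difference of log2 levels, each gene taken around its own mean. Among the 8 genes, Il1a was closest to Il1rn (0.66) and Il1b (0.78), Il1r2 to Il18rap (0.76), and Il1r1 to Il1rap (0.40). Over all genes, the nearest to Il1a were Clmp (0.32), Mmp2 (0.39) and Aldh1a2 (0.49), and those nearest to Il1b were Aldh1a2 (0.55), Smpdl3b (0.73) and Clmp (0.75). Aldh1a2 makes retinoic acid, and it was 3.68 and 4.30 in GM-MPP, 5.97 and 9.28 in GM-DC, and 7.16 and 10.30 in GM-TNFa-DC. Il1rn was nearest to Hilpda (0.27), C1ra (0.35) and Gstm2 (0.37), and Il18 to Zranb3 (0.22), Ak8 (0.24) and Gadd45g (0.24). Il1r2 was nearest to Psat1 (0.24), an enzyme of serine synthesis, Mbnl3 (0.27) and Fdps (0.30), an enzyme of the mevalonate pathway. Il18rap was nearest to Nin (0.12), Fam107b (0.13) and Riox1 (0.14). Il1r1 was nearest to Mocs1 (0.07), Tgds (0.07) and Hspa13 (0.08), and Il1rap to Cyb5r4 (0.07), Cdk5rap2 (0.07) and Neo1 (0.10). Il1r1 and Il1rap themselves spread by 0.31 and 0.46 around their own means. The difference of 0.40 between these 2 genes was thus no smaller than the spread of Il1r1 alone. Cyb5r4 was 9.95 and 10.05 in GM-MPP, 9.60 and 10.72 in GM-DC, and 9.77 and 10.79 in GM-TNFa-DC, with the number-2 array higher in both dendritic cell groups as for Il1rap.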

How the data were processed

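The authors deposited 1 log2 expression value per probe set, made with RMA per the submitters' processing notes and with Bioconductor per the labels; its version is not given in the sources used here. A log2 scale was inferred from the range (1.89 to 14.4). RMA equalises array brightness, and without detection calls the change of a dim gene is compressed. Of 45101 probe sets, 34945 had 1 gene symbol, 932 several and 9160 none; 34741 matched a RefSeq table by Entrez identifier. A gene was represented by its brightest single-symbol probe set on average.

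Tests used limma 3.58.1 (R 4.3.3; lmFit, eBayes with trend) on all 6 arrays, with 3 residual degrees of freedom, and Benjamini-Hochberg adjustment over 18193 genes. The fit was checked on simulated data. Python 3.11.15 prepared tables and plots. The members and lists, the latter from textbook knowledge, were chosen with earlier results of these data known. Named were all members, called or most changed genes of each list (up to 4), defining markers, and the 3 nearest profiles. Genes named for a gap between array numbers, and the 13 changed 2-fold, were named after their values were seen. Alternatives covered normalization, dim genes, probe set choice, prior, arrays in the fit, the array number as a block and each array left out.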

Additional observations from a re-analysis of the deposited data

How the results depend on the processing

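Of 384 changes of single genes recomputed under alternatives, 355 kept their sign and their side of the threshold, 12 lost a call, 3 gained one and 14 changed sign. With every probe set tested, 519 probe sets were called higher and 732 lower in GM-DC against GM-MPP, and 1251 lower in GM-TNFa-DC against GM-MPP. With only the 4 arrays compared, 303 genes were higher and 446 lower in GM-TNFa-DC against GM-MPP. Leaving out dim genes gave 1 member called higher there, Il1b. A second quantile normalization turned Il1r1 in GM-TNFa-DC against GM-DC to 0.05, where it had been near 0.

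With 1 array left out in turn, GM-DC against GM-MPP had 20 to 346 genes called higher and 30 to 371 lower, with 0 to 2 members lower and 0 to 1 higher. GM-TNFa-DC against GM-MPP had 37 to 303 higher and 51 to 457 lower, with 0 to 2 members lower. The changes that took both signs then were, for GM-DC against GM-MPP, Il1rap (-0.48 to 0.69). For GM-TNFa-DC against GM-DC they were Il18 (-2.05 to 0.12), Il18rap (-0.32 to 0.00), Il1a (-0.63 to 2.72), Il1r1 (-0.46 to 0.45), Il1rap (-0.38 to 0.79) and Il1rn (-1.27 to 2.13). For GM-TNFa-DC against GM-MPP they were Il1r1 (-0.79 to 0.12) and Il1rap (-0.17 to 0.80). The spread of a lone array was taken from the other groups.

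The labels do not say that array numbers pair the samples. Deviations of same-numbered arrays correlated at 0.105 in GM-DC against GM-MPP, 0.806 in GM-TNFa-DC against GM-DC and 0.072 in GM-TNFa-DC against GM-MPP, over 18193 genes. With the replicate block over 6 arrays, calls in GM-DC against GM-MPP numbered 627 higher and 849 lower, and 850 and 1210 in GM-TNFa-DC against GM-MPP. There 1 member, Il1b, was then called higher (limma adjusted p = 0.0206). The replicate block on the 4 arrays compared, added after seeing the data, gave 151 and 125, and 144 and 116, with 1 member lower in each. Il18rap lost its call (change -2.15, limma adjusted p = 0.0544, and -2.31, adjusted p = 0.0565). In GM-TNFa-DC against GM-DC no block gave a call, and Il1b had an adjusted p of 0.157 in the 4-array fit. The cause of these changes was not tested. With 2 arrays a group, only differences well above the spread between arrays could be called.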
